A study of Mus musculus with 2 samples.

Results

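The oxidative phosphorylation module was taken by gene symbol. It held every gene of the count matrix whose symbol starts with mt-Nd, mt-Co, mt-Cytb, mt-Atp, Nduf followed by a, b, c, s or v, Sdh followed by a to d, Uqcr, Cox4i, Cox5, Cox6, Cox7, Cox8 or Atp5. Of 32285 genes, 111 had such a symbol, and 108 of these had at least 100 UMIs (unique molecular identifiers, each standing for 1 captured RNA molecule) over both libraries. Cox7b2 with 4 UMIs, Cox8b with 9 and Cox8c with 0 fell below that limit. The 108 members were not all subunits. They were 13 mitochondrially encoded subunits, 76 nuclear-encoded subunits, 12 assembly factors (Ndufaf and Sdhaf genes), 5 isoforms of restricted tissue use (Cox4i2, Ndufa4l2, Cox7a1, Cox6a2 and Cox6b2), the supercomplex factor Cox7a2l and 1 row named as a pseudogene, Ndufb1-ps. Sums called nuclear below are over the 76 nuclear-encoded subunits.

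Mouse pancreatic tumors were profiled with the Chromium single cell 5′ v2 kit, in 1 control library and 1 library made after insufficient irreversible electroporation (iIRE), a treatment with short high-voltage pulses that ablates only part of the tumor. Both tumors grew in the pancreas of C57BL/6 mice (5 to 7 weeks old where the methods give an age) from KPC cells, 1 line that came from a Pdx1-Cre mouse with Trp53 R172H/+, so both libraries share its alleles, not all of which are reported here. When tumors measured 7 to 9 mm, iIRE was given as 99 pulses of 100 µs at 1000 V and 1 Hz between needles 5 mm apart. Both were collected on day 3. The control is described as sham surgery in the design text and as untreated in the text on the sequencing. How many mice went into each library is not given in the sources used here. With 1 library per group no test of iIRE against control was possible, and all intervals given (95%, exact) speak of counting error and not of mice.

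The control library held 18214 barcodes with at least 1000 UMIs (median 8381.5 UMIs) and the iIRE library 19099 (median 6726), and 440 barcode sequences occurred in both. Barcodes were put into classes by marker genes that are not members. The classes compared were macrophages or monocytes (1086 control and 1025 iIRE barcodes), osteoclast-like myeloid cells (100 and 112), neutrophils (143 and 143), epithelial-type tumor cells (789 and 790) and mesenchymal-type tumor cells (5851 and 5524). Between 52.7% and 57.1% of barcodes passed no gate. Osteoclast markers such as Acp5 and Ctsk summed to 31759 and 21443 CPM (counts of the gene scaled to 1000000 UMIs of the class) in the osteoclast-like class, against 286 and 312 CPM in macrophages. Cdkn2a, which marks the KPC cells, stood at 1246 to 1451 CPM in the tumor classes and at 399 CPM in iIRE neutrophils, against 151 CPM in control neutrophils.

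Oxidative phosphorylation passes electrons from NADH and succinate through complexes I to IV of the inner mitochondrial membrane to oxygen, and ATP synthase, complex V, uses the resulting proton gradient to make ATP. The mitochondrial genome encodes a small set of core subunits, transcribed as long RNAs that are then cleaved. Nuclear genes encode complex II entirely and most subunits of the others. Osteoclasts are known for abundant mitochondria, and mature neutrophils for few and for a reliance on glycolysis.

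The 13 mitochondrially encoded members lie on the mitochondrial chromosome of GRCm38 (mm10), all on the plus strand except mt-Nd6. In 4 places neighbouring genes overlap, which limits how reads are told apart. The longest overlap is 43 bases, between mt-Atp8 (chrM:7766-7969, 204 bases) and mt-Atp6 (chrM:7927-8607, 681 bases), which encode the small and the proton-channel subunit of complex V and whose ratios between the libraries differed. The coding sequence of mt-Atp8 on the plus strand is shown from the GENCODE vM21 annotation and the GRCm38 genome, with the 43 bases it shares with mt-Atp6 in capitals.
mt-Atp8: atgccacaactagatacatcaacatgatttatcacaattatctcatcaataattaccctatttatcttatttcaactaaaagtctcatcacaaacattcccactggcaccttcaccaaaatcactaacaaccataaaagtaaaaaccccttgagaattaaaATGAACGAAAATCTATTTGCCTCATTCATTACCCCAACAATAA
Of the 13 genes, 7 (mt-Co1, mt-Co2, mt-Atp6, mt-Co3, mt-Nd3, mt-Nd4l and mt-Nd4) also have an annotated near copy on chromosome 1 (chr1:24611535-24616197) that matches them at 98.8% to 100% of its bases. Only annotated genes were compared, so copies of the other genes there could have gone unlisted. These copies are annotated as unprocessed pseudogenes and are not in the gene table. How reads that fit both places were counted was not tested.

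Of the 95 nuclear-encoded members, 77 had a promoter in the RefSeq table for GRCm38, with 82 promoters of 300 bases in all (250 before and 50 after the start). The core of NRF1, a factor known to act on respiratory chain genes, was searched as GCGCATGCG on both strands and occurred in 12.2% of the member promoters against 1.75% of all 32851 promoters. The core of the ETS family, to which GABP belongs, was searched as CCGGAAG and occurred in 26.8% against 8.86%. The YY1 motif AAGATGGCG occurred in 9.76% against 1.40%, the estrogen-related receptor motif AAGGTCA in 9.76% against 4.72%, and ACGTG, the core of the hypoxia response element, in 22.0% against 19.6%. The promoters of Cox8a and Cox6a1, 2 complex IV subunits that were higher in the iIRE library in macrophages, are shown from RefSeq. Capitals mark the motif matches, which are descriptions and not binding sites. The Cox8a promoter (chr19:7217567-7217866, minus strand) held 2 ETS matches.
Cox8a: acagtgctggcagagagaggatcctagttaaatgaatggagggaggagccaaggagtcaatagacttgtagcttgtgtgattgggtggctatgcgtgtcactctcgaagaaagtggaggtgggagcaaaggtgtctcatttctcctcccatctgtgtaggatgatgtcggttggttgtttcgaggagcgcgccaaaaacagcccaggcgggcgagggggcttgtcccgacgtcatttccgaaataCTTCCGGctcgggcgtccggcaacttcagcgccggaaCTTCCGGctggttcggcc
The Cox6a1 promoter (chr5:115348909-115349208, minus strand) held 1 ETS match and 2 overlapping NRF1 matches, 1 on each strand.
Cox6a1: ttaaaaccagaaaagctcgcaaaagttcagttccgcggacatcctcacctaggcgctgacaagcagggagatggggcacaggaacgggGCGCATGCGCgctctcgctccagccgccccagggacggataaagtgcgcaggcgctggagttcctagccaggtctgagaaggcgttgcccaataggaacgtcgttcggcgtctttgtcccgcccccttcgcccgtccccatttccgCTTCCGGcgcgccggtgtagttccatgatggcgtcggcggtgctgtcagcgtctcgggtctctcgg

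The mitochondrially encoded sum had a log2 ratio of iIRE over control below 0 in 4 of the 5 classes, and the nuclear-encoded sum lay within -0.02 to 0.17 in all 5. In macrophages the 13 mitochondrial genes summed to 15077 CPM in control and 12854 CPM in iIRE (log2 ratio -0.23, interval -0.24 to -0.22, iIRE over control with 10 CPM added to both). In osteoclast-like cells the sums were 22476 and 15715 CPM (log2 ratio -0.52). They were 15492 and 13334 CPM in epithelial-type (log2 ratio -0.22) and 16292 and 13875 CPM in mesenchymal-type tumor cells (log2 ratio -0.23). A member or sum is called higher or lower here only from 1.2-fold (0.26 on the log2 scale) with an interval that leaves out 0, and of these 4 sums only that of osteoclast-like cells passed it, while with totals scaled by TMM (trimmed mean of M-values) those of macrophages (-0.28) and mesenchymal-type cells (-0.27) passed too. In osteoclast-like cells Malat1, a nuclear RNA, stood at 6027 and 3667 CPM and the osteoclast markers at 31759 and 21443 CPM, and their part in the lower sum was not tested. Tumor barcodes with as many epithelial as mesenchymal markers (421 and 415), which enter neither tumor class, summed to 15463 and 12622 CPM (log2 ratio -0.29, interval -0.30 to -0.28), which passed 1.2-fold, and to 26189 and 27651 CPM of nuclear genes (0.08). The nuclear sum was 23705 and 26396 CPM in macrophages (log2 ratio 0.16), 54973 and 54274 CPM in osteoclast-like cells (-0.02), 25875 and 27326 CPM in epithelial-type tumor cells (0.08) and 24718 and 26159 CPM in mesenchymal-type tumor cells (0.08), and none of these passed 1.2-fold. The ratio of mitochondrial to nuclear sum therefore stood at 0.636 in control and 0.487 in iIRE macrophages, at 0.409 and 0.290 in osteoclast-like cells and at 0.659 and 0.530 in mesenchymal-type tumor cells.

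**Figure D1:**
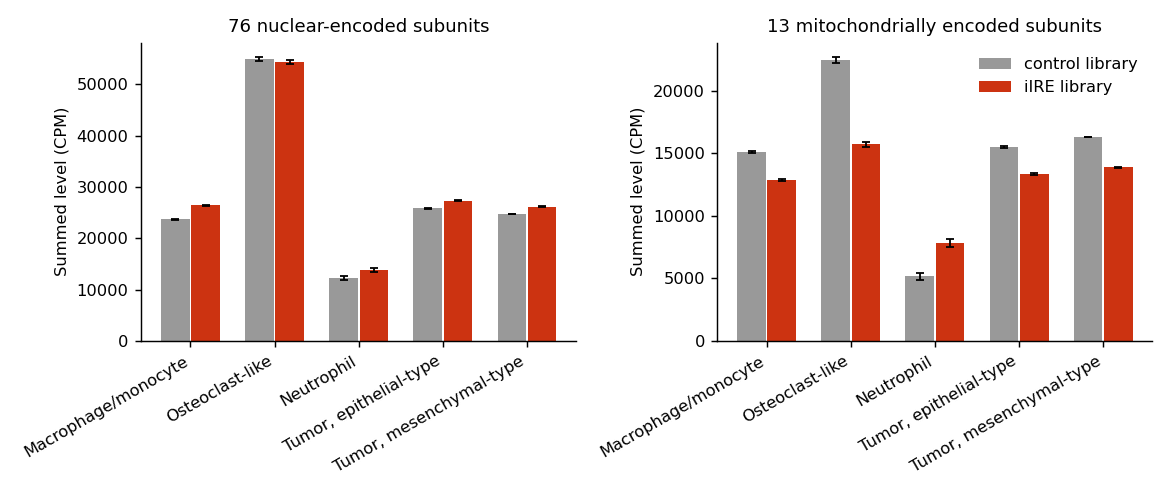
Summed level of the 13 mitochondrially encoded and the 76 nuclear-encoded subunits (CPM) in each class, drawn for both libraries with exact 95% counting intervals. The osteoclast-like class has the highest nuclear sums (54973 and 54274 CPM) and the neutrophils the lowest (12245 and 13776 CPM).

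The share of mitochondrial RNA also rises in damaged cells, so its spread over barcodes is given with these sums. Barcodes with over 5% of UMIs from mitochondrial genes numbered 399 in control and 268 in iIRE, and those over 10% numbered 110 and 64. Without the barcodes over 5%, the log2 ratio of the mitochondrial sum was -0.18 in macrophages, -0.47 in osteoclast-like cells and -0.22 in mesenchymal-type tumor cells. The median share per barcode was 1.41% in control and 1.23% in iIRE macrophages, and 2.13% and 1.5% in osteoclast-like cells.

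In neutrophils the mitochondrial sum was higher in iIRE, at 5171 CPM in control and 7839 CPM in iIRE (log2 ratio 0.60, interval 0.50 to 0.70), but much of this came from few cells. In the iIRE library 2 of the 143 neutrophil barcodes had over 10% mitochondrial UMIs, and in control none had over 5%. Without these 2 barcodes the log2 ratio was 0.25, under 1.2-fold. Neutrophils had a median of 1331 and 1326 UMIs per barcode, so each value rests on few molecules. Without barcodes holding a UMI of Cdkn2a the mitochondrial log2 ratio was 0.72 and the nuclear one -0.16, against 0.17 with them.

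The 13 mitochondrial genes did not move by 1 factor, although they are read from shared precursor RNAs. mt-Atp6, the proton-channel subunit of complex V, had the lowest ratio of the 13 in macrophages, osteoclast-like cells and both tumor classes. It stood at 1396 CPM in control and 875 CPM in iIRE macrophages (log2 ratio -0.67, interval -0.71 to -0.62), at 2004 and 1106 CPM in osteoclast-like cells (-0.85), and at 1471 and 960 CPM in mesenchymal-type tumor cells (-0.61). mt-Atp8, whose last 43 bases are the first of mt-Atp6 (the capitals above), stood at 1090 and 1062 CPM in macrophages (log2 ratio -0.04, interval -0.08 to 0.01) and at 1193 and 1273 CPM in mesenchymal-type tumor cells (0.09). The 2 genes of complex V thus differed in opposite directions in mesenchymal-type and epithelial-type tumor cells, by sizes of which only that of mt-Atp6 passed 1.2-fold. The genes overlap, and mt-Atp6 has an annotated near copy on chromosome 1 (chr1:24613974-24614651). It lies beside that of mt-Co2 (chr1:24614885-24615565), in the same order as on the mitochondrial chromosome. Only annotated genes were compared, so a copy of mt-Atp8 between these 2 could have gone unlisted. The part of read assignment in the different ratios of mt-Atp6 and mt-Atp8 was not tested.

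The 3 mitochondrially encoded core subunits of complex IV also differed among themselves. mt-Co2 was lower in iIRE in macrophages, at 2732 CPM in control and 2115 CPM in iIRE (log2 ratio -0.37), and in mesenchymal-type tumor cells, at 2860 and 2211 CPM (-0.37). mt-Co3 stood at 1606 and 1584 CPM in macrophages (log2 ratio -0.02) and mt-Co1 at 3560 and 3258 CPM (-0.13). In osteoclast-like cells mt-Co1 was lower, at 5655 and 3630 CPM (log2 ratio -0.64). Among the complex I genes, mt-Nd4l was lower in macrophages, at 838 and 643 CPM (log2 ratio -0.38), and mt-Nd1 in mesenchymal-type tumor cells, at 635 and 460 CPM (-0.46). mt-Nd6, the only member on the minus strand, was the exception. It was higher in iIRE in epithelial-type tumor cells, at 31.3 and 42.2 CPM (log2 ratio 0.34, interval 0.20 to 0.48), and in mesenchymal-type tumor cells, at 36.8 and 48.9 CPM (0.33, interval 0.28 to 0.38). mt-Cytb, the only mitochondrial gene of complex III, stood at 2184 and 1880 CPM in mesenchymal-type tumor cells (log2 ratio -0.22).

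**Figure D2:**
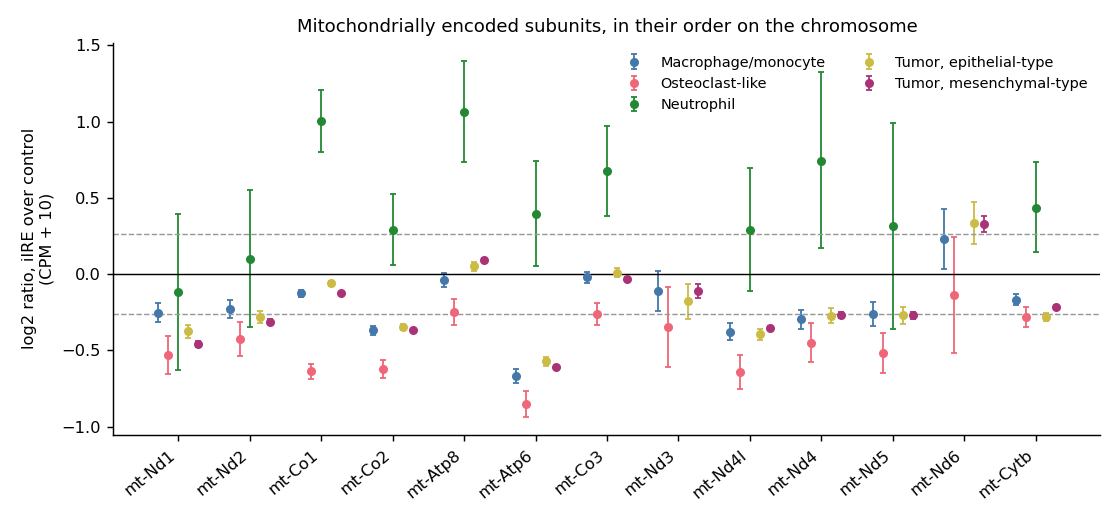
Log2 ratio of iIRE over control (10 CPM added) for each of the 13 mitochondrially encoded genes in their order on the chromosome, by class, with exact 95% counting intervals. mt-Atp6 is the lowest gene in macrophages (-0.67), osteoclast-like cells (-0.85), epithelial-type (-0.57) and mesenchymal-type tumor cells (-0.61), and mt-Nd6 lies above 0 in macrophages and both tumor classes.

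In macrophages and monocytes, 10 of the 106 members with at least 50 UMIs (9.43%) were higher in iIRE and 5 (4.72%) lower. These shares were near the 7.96% and 4.18% of all genes tested, that is, with at least 50 UMIs in the class. Ndufa4, first named for complex I and since placed in complex IV, stood at 281 CPM in control and 400 CPM in iIRE (log2 ratio 0.49, interval 0.42 to 0.57). Cox6a1 (399 to 528 CPM, log2 ratio 0.40) and Cox8a (953 to 1215 CPM, 0.35), accessory subunits of complex IV whose promoters are shown above, were also higher. So were Uqcr10 of complex III (240 to 297 CPM, log2 ratio 0.30), Atp5mpl of complex V (340 to 420 CPM, 0.30), Atp5o, which links the parts of ATP synthase (315 to 385 CPM, 0.28), and Sdhc, a membrane anchor of complex II (85.5 to 106 CPM, 0.28). Ndufab1, the mitochondrial acyl carrier protein, Ndufb4 and the assembly factor Ndufaf4 completed the 10. The 5 lower members were mt-Atp6, mt-Nd4l, mt-Co2, mt-Nd4 and Cox4i2, an isoform of restricted tissue use at 7.75 and 4.68 CPM. Of the 76 nuclear subunits, 70 had a ratio above 0, with a median log2 ratio of 0.12 against 0.04 over all genes. With totals scaled by TMM, which moved log2 ratios in this class down by 0.05, only 4 members were higher and 8 lower.

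Macrophage subsets carried the mitochondrial genes at different levels. Barcodes with a UMI of Ly6c2, a monocyte gene, and none of the C1q genes summed to 8977 CPM in control (36 barcodes) and 8236 CPM in iIRE (62 barcodes). Barcodes with all 3 C1q genes, which mature macrophages express, and no Ly6c2 summed to 16168 CPM (870 barcodes) and 13721 CPM (773 barcodes). Nuclear subunits summed to 22252 and 22950 CPM in the Ly6c2 subset and to 23573 and 26165 CPM in the C1q subset. The Ly6c2 subset has under 50 barcodes in control and is given as values only.

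In osteoclast-like cells, 1 of 102 members was higher in iIRE and 12 were lower, against 10.9% and 8.07% of all genes tested. The lower ones included 10 of the 13 mitochondrial genes, all but mt-Co3, mt-Atp8 and mt-Nd6. The other lower members were Cox7a2l, which takes part in joining respiratory complexes (354 CPM in control and 251 CPM in iIRE, log2 ratio -0.48), and Ndufa13, a complex I subunit (709 and 567 CPM, -0.32). Ndufa11, a membrane subunit of complex I, was the higher one (232 and 298 CPM, log2 ratio 0.35). Of the 76 nuclear subunits 34 had a ratio above 0, with a median log2 ratio of -0.01 against 0.04 over all genes. With TMM scaling 20 members were lower and 1 higher.

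In neutrophils only 60 members reached 50 UMIs, of which 14 were higher in iIRE and 1 lower, against 14.8% and 10.2% of all genes tested. Of the 14, 7 were mitochondrial genes, which rest in part on the 2 barcodes named above. Among nuclear members, Ndufb4 of complex I stood at 54.0 CPM in control and 176 CPM in iIRE (log2 ratio 1.54, interval 0.78 to 2.32), from 15 and 49 UMIs. Ndufb6, also of complex I, was the lower one, at 137 and 57.5 CPM (log2 ratio -1.12, interval -1.92 to -0.34), from 38 and 16 UMIs. Without the 2 barcodes 9 members were higher. Without barcodes holding a UMI of Cdkn2a 8 were higher and 2 lower. Epithelial markers summed to 403 CPM in control and 1142 CPM in iIRE neutrophils, and Cdkn2a stood at 151 and 399 CPM. The part of these in the counts was not tested.

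In tumor cells the nuclear members hardly differed between the libraries. Of 104 members tested in epithelial-type cells 2 were higher in iIRE and 9 lower, against 3.01% and 1.58% of all genes, and of 105 in mesenchymal-type cells 2 were higher and 7 lower, against 0.772% and 0.73%. The 2 higher ones were Cox8a and mt-Nd6 in both classes. Cox8a stood at 934 CPM in control and 1218 CPM in iIRE in epithelial-type cells (log2 ratio 0.38, interval 0.35 to 0.41) and at 749 and 951 CPM in mesenchymal-type cells (0.34, interval 0.33 to 0.35). It was the only nuclear subunit called higher in both tumor classes, and it was also called in macrophages and neutrophils. All of the lower members were mitochondrial genes except Ndufaf1, an assembly factor of complex I, in epithelial-type cells (19.8 and 14.8 CPM, log2 ratio -0.26). Ndufa4 came next below the threshold, at 521 and 626 CPM in mesenchymal-type cells (log2 ratio 0.26). Of the 76 nuclear subunits 55 had a ratio above 0 in each tumor class, with median log2 ratios of 0.06 and 0.07 against 0.01 over all genes.

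**Figure D3:**
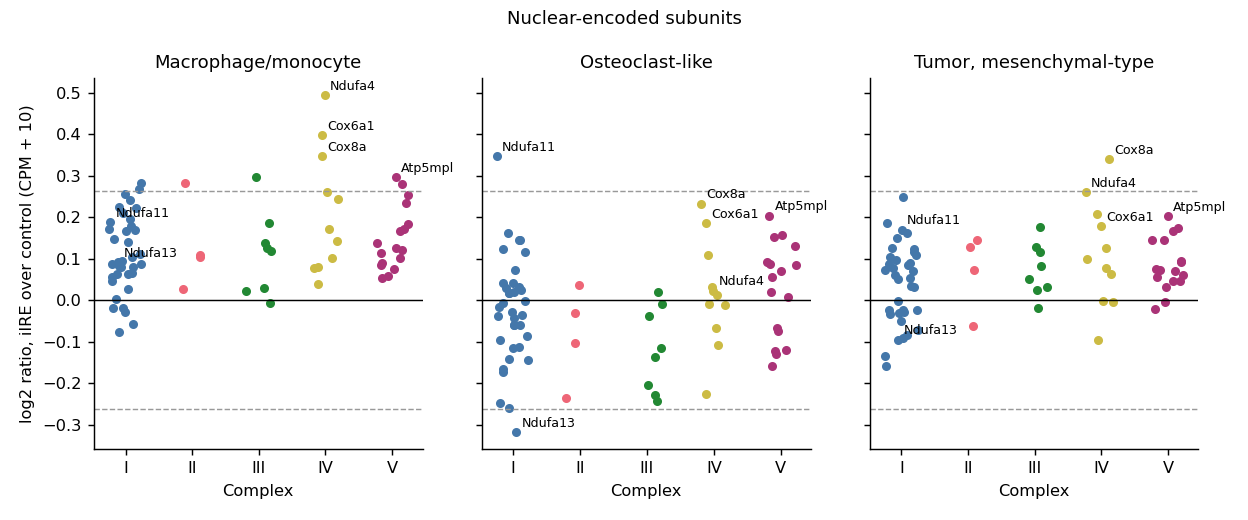
Log2 ratio of iIRE over control (10 CPM added) for the nuclear-encoded subunits, grouped by complex I to V. The panels show macrophages, osteoclast-like cells and mesenchymal-type tumor cells. Each point is 1 gene, and the values of macrophages lie mostly above 0 (70 of 76).

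Other genes of the pathway, from lists that hold no members, were counted in the same way. Over all genes tested, 7.96% were higher and 4.18% lower in macrophages, 10.9% and 8.07% in osteoclast-like cells and 14.8% and 10.2% in neutrophils. In tumor cells these shares were 3.01% and 1.58% (epithelial-type) and 0.772% and 0.73% (mesenchymal-type). Of 78 mitochondrial ribosomal protein genes 11 were higher and 0 lower in iIRE macrophages (median log2 ratio 0.15), and 15 were higher and 2 lower in osteoclast-like cells (median 0.15). Of 16 genes of the tricarboxylic acid cycle, which supplies the chain with NADH and succinate, 4 were lower and 0 higher in osteoclast-like cells, and in macrophages none was called. Of 14 glycolysis genes tested 2 were lower and 0 higher in macrophages, 2 were higher and 3 lower in osteoclast-like cells, and 1 was higher and 0 lower in epithelial-type tumor cells. In neutrophils 4 of 13 were higher and 1 lower, and in mesenchymal-type tumor cells 0 of 15 were higher and 1 lower. In the tumor classes none of the 16 cycle genes, the 78 ribosomal protein genes or the 31 assembly factors outside the member prefixes was called.

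Between osteoclast-like cells and macrophages the nuclear subunits differed more than between the libraries. Osteoclast-like cells carried nuclear subunits at 2.32-fold the macrophage level in control and 2.06-fold in iIRE (log2 ratios 1.21 and 1.04). In both libraries 89 of 104 members tested were higher and 0 lower, against 19.5% and 20.1% of all genes, and 73 of the 76 nuclear subunits were among them, with a median log2 ratio of 1.06 against 0.03 over all genes. Complex II had the largest ratio of its sum (494 and 1725 CPM in control, 542 and 1619 CPM in iIRE, log2 ratios 1.78 and 1.56) and complex I the smallest (1.06 and 0.91). Complexes III, IV and V lay between, with log2 ratios of 1.40 and 1.16, 1.24 and 1.04, and 1.21 and 1.07.

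Among single members, Ndufa4 stood at 281 CPM in macrophages and 1199 CPM in osteoclast-like cells in control and at 400 and 1218 CPM in the iIRE library (log2 ratios 2.05 and 1.58). Sdha, the catalytic flavoprotein of complex II, stood at 98.0 and 406 CPM in control and 99.98 and 343 CPM in iIRE (1.94 and 1.68), and Sdhb, its iron-sulfur subunit, at 183 and 684 CPM and at 198 and 636 CPM (1.84 and 1.63). Atp5g3, 1 of the 3 genes for the c ring of ATP synthase, stood at 779 and 2768 CPM and at 843 and 2781 CPM (1.82 and 1.71). Uqcrc1, a core subunit of complex III, stood at 133 and 496 CPM and at 148 and 483 CPM (1.82 and 1.64), Atp5b, the catalytic subunit of complex V, at 444 and 1481 CPM and at 471 and 1501 CPM, and Ndufs1, an iron-sulfur subunit of complex I, at 33.2 and 131 CPM and at 35.2 and 115 CPM. In every one of these pairs the osteoclast-like values of both libraries lay above both macrophage values. The members not called included Ndufv3, a subunit of complex I (log2 ratios 0.19 and 0.18), the assembly factors Ndufaf7 (-0.63 and -0.32) and Ndufaf8 (0.02 and -0.09), and 6 mitochondrial genes.

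**Figure D4:**
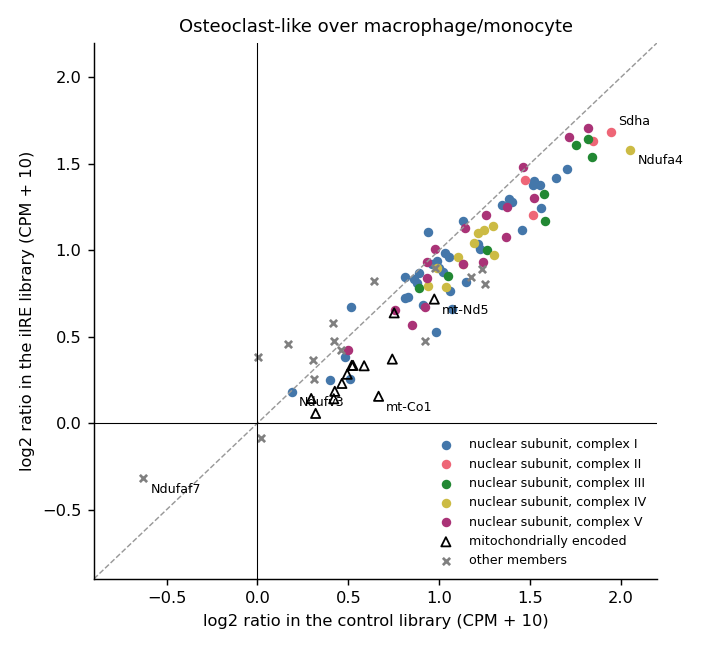
Log2 ratio of osteoclast-like cells over macrophages for each member (10 CPM added), control library on the x axis and iIRE library on the y axis, with mitochondrial and nuclear genes marked apart. Nuclear subunits have a median of 1.06, and mitochondrial genes lie lower, up to mt-Nd5 at 0.97 and 0.72.

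Over all depths the mitochondrial genes had smaller ratios than the nuclear ones in the same cells. Their sum stood at 15077 CPM in macrophages and 22476 CPM in osteoclast-like cells in control and at 12854 and 15715 CPM in the iIRE library (log2 ratios 0.58 and 0.29), and 7 of the 13 were called higher. mt-Nd5 of complex I (log2 ratios 0.97 and 0.72) and mt-Cytb of complex III (0.75 and 0.64) had the largest ratios. Osteoclast-like barcodes were deeper, with medians of 14984 and 13253 UMIs against 6637 and 5916 in macrophages. Among barcodes of 3000 to 10000 UMIs, of which the osteoclast-like class had 13 and 22, the nuclear log2 ratios were 1.16 and 0.98 and the mitochondrial ones 1.18 and 1.01. The nuclear ratios at like depth were close to those over all depths, and the mitochondrial ones were larger. These 13 and 22 barcodes are the shallow end of a class with medians of 14984 and 13253 UMIs. They number under 50 per library and are given as values only. The part of depth in the smaller mitochondrial ratios was not tested.

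Outside the members, all 16 genes of the tricarboxylic acid cycle were higher in osteoclast-like cells in both libraries (median log2 ratio 1.40), led in level by Mdh2, its malate dehydrogenase (2.09). Of 78 mitochondrial ribosomal protein genes 60 were higher and 1 lower (median 0.67), and of 12 genes of electron carriers and coenzyme Q synthesis 10 were higher, among them Cycs, the cytochrome c gene (1.66). Ppargc1b, a coactivator of mitochondrial biogenesis known from osteoclasts, stood at 187 and 135 CPM against 8.25 and 9.36 CPM in macrophages. Of 14 glycolysis genes, 1 was higher and 6 were lower. Over all genes tested, 19.5% were higher and 20.1% lower.

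Neutrophils showed the opposite. Of 104 members 0 were higher and 75 lower than in macrophages in both libraries, against 9.33% and 15.6% of all genes, and 62 of 76 nuclear subunits and 12 of 13 mitochondrial genes were among the lower. The nuclear sum stood at 12245 and 13776 CPM (log2 ratios over macrophages -0.95 and -0.94), with a median over the 76 of -1.004 against -0.36 over all genes. Cox7c of complex IV stood at 574 CPM in macrophages and 155 CPM in neutrophils of the control library and at 590 and 194 CPM in iIRE (log2 ratios -1.83 and -1.56), and Ndufc2 of complex I at 262 and 75.6 CPM and at 278 and 61.1 CPM (-1.67 and -2.02). Cox8a, in contrast, stood at 953 and 874 CPM and at 1215 and 1059 CPM and was not called. Cox17, a copper chaperone for complex IV that is no member, was higher in neutrophils (mean log2 ratio 1.44). Neutrophils had 2 and 9 barcodes of 3000 to 10000 UMIs, too few to compare at like depth. Of 14 glycolysis genes tested 6 were higher and 1 lower.

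Mesenchymal-type tumor cells and macrophages had near equal sums, 24718 against 23705 CPM in control and 26159 against 26396 CPM in iIRE for nuclear subunits. Of 105 members 33 (31.4%) were higher in the tumor cells and 25 (23.8%) lower, near the 37.3% and 20.5% of all genes tested. Ndufa1, a membrane-arm subunit of complex I, stood at 185 CPM in macrophages and 67.0 CPM in tumor cells in control and at 214 and 72.4 CPM in iIRE (log2 ratios -1.34 and -1.44). Cox5a of complex IV stood at 466 and 207 CPM and at 493 and 219 CPM (-1.14 and -1.14). Ndufv1, which binds NADH in complex I, was higher, at 66.0 and 159 CPM and at 76 and 156 CPM (1.15 and 0.95), as was Ndufa13, at 332 and 670 CPM and at 355 and 626 CPM (0.99 and 0.80). Of the mitochondrial genes mt-Cytb (0.54 and 0.49) and mt-Nd4l (0.33 and 0.35) were higher and mt-Nd3 lower (-0.65 and -0.65). Macrophages come from the host and tumor cells from the KPC line, and tumor barcodes were deeper (medians 14954 and 12209 UMIs). The part of depth was not tested.

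The 2 tumor types were close to each other. Epithelial-type cells were higher than mesenchymal-type cells in 3 of 105 members and lower in 0, against 8.75% and 13.4% of all genes. These were Cox7a2l (138 CPM in mesenchymal-type and 182 CPM in epithelial-type cells in control, 127 and 173 CPM in iIRE, log2 ratios 0.38 and 0.42), Ndufb8 of complex I (220 and 277 CPM, 216 and 279 CPM, 0.32 and 0.36) and Cox8a (749 and 934 CPM, 951 and 1218 CPM, 0.32 and 0.35). mt-Cytb had the lowest ratio, at 2184 and 1824 CPM in control and 1880 and 1499 CPM in iIRE (-0.26 and -0.32), and passed the threshold in the iIRE library alone.

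Among tumor cells, dividing cells carried more of the nuclear and less of the mitochondrial genes. Tumor barcodes with at least 3 of 10 division markers such as Mki67 numbered 3293 in control and 3323 in iIRE, and those with none 2001 and 1860. Of 105 members 39 were higher in the dividing cells and 10 lower in both libraries, against 16.1% and 9.2% of all genes, and 34 nuclear subunits were higher and 3 lower (Uqcrh, Ndufa6 and Ndufv3). The nuclear sum stood at 22784 CPM in cells without markers and 26681 CPM in dividing cells in control and at 23989 and 28040 CPM in iIRE (log2 ratios 0.23 and 0.23). The mitochondrial sum stood at 18181 and 14350 CPM and at 16355 and 11843 CPM (-0.34 and -0.47).

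Cox5a, low in mesenchymal-type tumor cells against macrophages, stood at 160 CPM without markers and 260 CPM in dividing cells in control and at 163 and 274 CPM in iIRE (log2 ratios 0.67 and 0.72). Ndufa5 of complex I stood at 158 and 245 CPM and at 152 and 233 CPM (0.61 and 0.59), and the assembly factor Ndufaf2 at 26.3 and 50.4 CPM and at 25.1 and 44.5 CPM (0.73 and 0.63). Ndufa4 (0.56 and 0.51) and Atp5g3 (0.48 and 0.53) were also higher. mt-Co1 had the lowest ratio, at 4563 and 3070 CPM and at 4422 and 2749 CPM (-0.57 and -0.68), and Cox7a2l was the lowest nuclear member, at 176 and 119 CPM and at 164 and 113 CPM (-0.53 and -0.51). All 13 mitochondrial genes had ratios below 0 in both libraries, and 6 were called lower.

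Dividing barcodes were shallower over all tumor cells, with medians of 11224 and 8267 UMIs against 15496 and 13465. They were shallower in mesenchymal-type cells (8276.5 and 6303 against 15769 and 13898.5) but deeper in epithelial-type cells (26137 and 23837 against 13853 and 11630). The mitochondrial sum of dividing cells was lower in both types. In epithelial-type cells it stood at 17751 and 13617 CPM in control and 16855 and 11125 CPM in iIRE, without markers and dividing. Among tumor barcodes of 10000 to 30000 UMIs, 37 of 104 members were higher and 4 lower, against 14.2% and 9.8% of all genes tested, 34 of the higher and 1 of the lower were nuclear subunits, and the nuclear log2 ratios were 0.26 and 0.25. The mitochondrial log2 ratios were -0.09 and -0.27 there, and mt-Co1 alone of the 13 was called lower. This range did not equalize depth. Within it dividing barcodes were deeper, with medians of 22626 and 22619.5 UMIs against 16957 and 15215. Other genes were counted over all depths, where 16.1% of all genes tested were higher and 9.2% lower. There 50 of 78 mitochondrial ribosomal protein genes and 7 of 16 cycle genes were higher in dividing cells and none lower. Of 14 glycolysis genes 10 were lower and none higher. Cycs was higher over all depths, with a mean log2 ratio of 1.06.

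**Figure D5:**
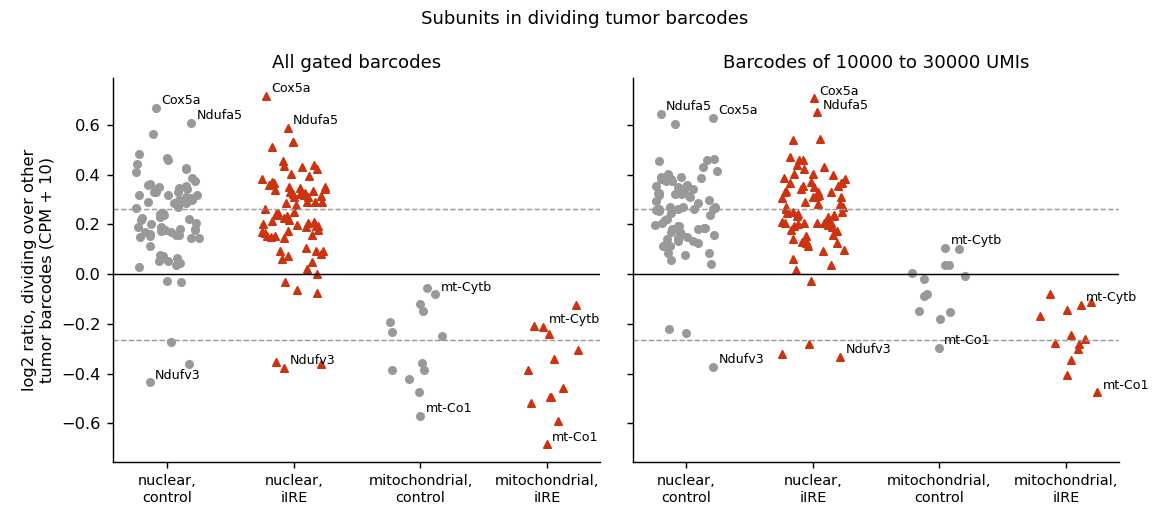
Log2 ratio of dividing over other tumor cells (10 CPM added) for the nuclear-encoded and mitochondrially encoded subunits in the control and iIRE libraries. The panels show all depths and barcodes of 10000 to 30000 UMIs. Over all depths, nuclear subunits lie mostly above 0 in both libraries (34 called higher, 3 lower), and the 13 mitochondrial genes lie below 0 in both.

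Tumor cells marked by hypoxia genes carried less mitochondrial RNA, but this gate follows depth. Barcodes with at least 5 hypoxia markers such as Car9 and Vegfa numbered 4872 in control and 3913 in iIRE (medians 17691 and 15477 UMIs), and those with at most 1 numbered 208 and 284 (medians 6021.5 and 6093.5). Of 105 members 0 were higher and 18 lower in the marked cells, against 7.18% and 1.73% of all genes, and 11 of the 18 were mitochondrial. mt-Nd4l stood at 1731 CPM in unmarked and 958 CPM in marked cells in control and at 1358 and 716 CPM in iIRE (log2 ratios -0.85 and -0.91). Cox6c, an accessory subunit of complex IV, stood at 798 and 522 CPM and at 793 and 595 CPM. The mitochondrial sum had log2 ratios of -0.50 and -0.67 and the nuclear sum of -0.19 and -0.11. At 10000 to 30000 UMIs the unmarked cells numbered 55 and 82, the mitochondrial ratios were -0.25 and -0.35, and the nuclear ones -0.26 and -0.20. Marked cells were still deeper in this range, with medians of 19241 and 18029 UMIs against 14025 and 12877.5. In the same range 1 of 104 members was higher and 20 lower, against 4.83% and 1.59% of all genes, and 5 mitochondrial and 14 nuclear subunits were among the lower. Over all depths, all 14 glycolysis genes tested were higher in the marked cells, and 1 of them, Slc2a1, is itself among the hypoxia markers.

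Isoforms of restricted tissue use marked few cells. Ndufa4l2, a paralogue of Ndufa4 known as a target of hypoxia-inducible factors, stood at 344 CPM in control and 430 CPM in iIRE in host fibroblast-like cells (38 and 66 barcodes), and at 0 to 1.75 CPM in every other class. Cox4i2, the alternative to Cox4i1 in complex IV that is known from lung and vascular cells, stood at 43.3 and 36.2 CPM there and at 0 to 7.75 CPM elsewhere, where macrophages had the highest values. Cox7a1, the heart and muscle isoform of Cox7a2, stood at 34.0 and 31.4 CPM in osteoclast-like cells and at 0 to 13 CPM elsewhere. Cox6b2, known from testis, stood at 12 and 15.2 CPM in host fibroblast-like cells. The common isoform Cox4i1 stood at 725 and 756 CPM in host fibroblast-like cells and at 2694 and 2301 CPM in osteoclast-like cells.

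Within the host fibroblast-like class Ndufa4l2 and Cox4i2 are given apart for cells that also held pericyte genes, a list chosen after the Ndufa4l2 values were seen. In barcodes with at least 2 pericyte genes (7 in control and 8 in iIRE), Ndufa4l2 stood at 672 and 1095 CPM, and in the other 31 and 58 at 237 and 356 CPM. Cox4i2 stood at 127 and 280 CPM, with a UMI in 2 of the 7 and 4 of the 8 barcodes, against 16 and 9.09 CPM. Dcn, a fibroblast gene, stood at 2453 and 2610 CPM in the barcodes with pericyte genes and at 2828 and 3104 CPM in the others. Pdgfra, also among the mesenchymal markers, stood at 448 and 81.6 CPM in the former and at 381 and 182 CPM in the latter. These are values of few barcodes and were not compared.

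The other host classes and the acinar-rich barcodes had under 50 barcodes in at least 1 library and are given as values. Dendritic cells (71 and 27 barcodes) summed to 10153 and 8670 CPM of mitochondrial and 19680 and 19933 CPM of nuclear genes. T and NK cells (69 and 23) summed to 11317 and 8925 CPM and to 25432 and 25018 CPM, and endothelial cells (31 and 28) to 12854 and 12219 CPM and to 23939 and 23272 CPM. Host fibroblast-like cells summed to 9114 and 8945 CPM of mitochondrial and 18684 and 20008 CPM of nuclear genes. Barcodes rich in acinar enzyme RNA (24 and 31) summed to 14748 and 10695 CPM and to 19632 and 19010 CPM, and carried Cdkn2a at 817 and 826 CPM.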

How the data were processed

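The data were 1 control and 1 iIRE library. The authors deposited raw UMI counts per gene and barcode in 1 filtered matrix, aligned to mm10 with Cell Ranger and STAR per the labels. The matrix header names Cell Ranger 7.0.1, whereas the methods name another version, and whether intronic reads were counted is not given in the sources used here. Barcodes ending in -1 were read as control and in -2 as iIRE, by the library numbers in the labels.

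Barcodes with at least 1000 UMIs were kept, with no limit on mitochondrial share, which differs from the 5% limit of the study. A class asked for at least 3 of its markers and 3 times as many as of any other lineage. Tumor cells asked for at least 2 UMIs of Cdkn2a and none of 4 Y-linked genes, which stood at 92.1 to 188 CPM in the host classes. The gates limited doublets across lineages but not within a lineage, such as those of macrophages with neutrophils or of epithelial-type with mesenchymal-type tumor cells. The 5572 barcodes with the highest simulated-doublet scores were left out as an alternative. UMI counts were summed per class and library, and CPM is scaled to 1000000 UMIs of that sum. Intervals were exact Poisson or binomial ones, and between classes a call had to hold in both libraries. Genes with at least 50 UMIs in the classes compared are called tested. UMIs are molecules of cells, not replicates, so no p-value was computed.

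The members and lists were chosen with earlier results of these data known. The genes named were the 13 mitochondrial ones, the 5 highest and 5 lowest ratios per comparison, isoforms and core subunits, and members called. The calls were tested on simulated counts that held counting error only, which cannot show how spread between cells or mice would affect them. Python 3.11.15, numpy 2.4.6, scipy 1.17.1, pandas 2.3.3, scikit-learn 1.9.0 and matplotlib 3.10.9 were used. Alternatives were TMM scaling, nuclear genes as denominator, equal weight for each barcode, other gates, depths and mitochondrial limits, and 1 CPM added.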

Additional observations from a re-analysis of the deposited data

Results flagged for a closer look

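The mitochondrially encoded sum differed in opposite directions in 2 classes. In neutrophils it was higher in the iIRE library (log2 ratio 0.60, 5171 CPM in control and 7839 CPM in iIRE), and in osteoclast-like cells lower (-0.52, 22476 and 15715 CPM). With 1 library per group the difference between the classes was not tested. The neutrophil value rests in part on 2 iIRE barcodes with over 10% mitochondrial UMIs, and without the barcodes over 5% it was 0.25. The median share of mitochondrial UMIs per neutrophil barcode was 0.177% in control and 0.249% in iIRE.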

How the results depend on the processing

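No paired analysis was possible because each group has 1 library, and for the same reason no library could be left out. Of 262 alternative values, 162 stayed within counting error or 1.5 times the count, 100 moved and none changed the sign of a called value. Chosen after seeing the data were leaving out immune barcodes with a UMI of Cdkn2a, the 1.2-fold rule without the interval, and the depth range for shares. With TMM scaling, the mitochondrial log2 ratio of iIRE over control was -0.28 in macrophages, -0.57 in osteoclast-like, -0.25 in epithelial-type and -0.27 in mesenchymal-type cells, and the nuclear one 0.10, -0.07, 0.047 and 0.047. Then 4 macrophage members were higher and 8 lower, and 20 osteoclast-like members lower. With each barcode weighted equally, the mitochondrial ratio was -0.29 in macrophages, -0.45 in osteoclast-like cells, 0.97 in neutrophils, -0.18 in epithelial-type and -0.21 in mesenchymal-type cells, and the nuclear ratio 0.14 in macrophages and 0.24 in neutrophils. By fold alone, 9 macrophage members were then lower, 4 osteoclast-like ones higher, 35 neutrophil ones higher and 4 lower, and 4 epithelial-type ones higher. The 1.2-fold rule on summed counts gave 4 higher osteoclast-like members, and 28 higher and 4 lower neutrophil members. Without barcodes over 5% mitochondrial UMIs, the mitochondrial ratio was -0.18 in macrophages, -0.47 in osteoclast-like cells, 0.25 in neutrophils and -0.22 in mesenchymal-type cells, 3 macrophage members were lower, 9 neutrophil members were higher, and the mitochondrial ratio of iIRE neutrophils over macrophages was -1.05. A gate factor of 2 gave mitochondrial ratios of -0.41 in osteoclast-like cells, 0.39 in neutrophils, -0.25 in epithelial-type and -0.22 in mesenchymal-type cells, nuclear ratios of 0.001, 0.29, 0.089 and 0.074, and 2 lower neutrophil members. Without the highest doublet scores, the mitochondrial ratio was 0.89 in neutrophils and -0.21 in mesenchymal-type cells, whose nuclear ratio was 0.074. At 2000 UMIs per barcode, the neutrophil mitochondrial ratio was 0.43, with 7 members higher and 0 lower, and asking for 200 UMIs in the class gave 7 and 0. Without Cdkn2a barcodes, the mitochondrial ratio was -0.49 in osteoclast-like cells and 0.72 in neutrophils, whose nuclear ratio was -0.16, with 8 members higher and 2 lower. With nuclear genes as denominator, the nuclear ratio of mesenchymal-type cells was 0.078, and in dividing over other tumor cells the mitochondrial ratios were -0.35 and -0.47 and the nuclear ones 0.22 and 0.22 in control and iIRE. At 3000 to 10000 UMIs, osteoclast-like cells over macrophages gave mitochondrial ratios of 1.18 and 1.01 and nuclear ones of 1.16 and 0.98, and neutrophils over macrophages -1.78 (mitochondrial, control), -0.81 and -0.40 (nuclear), from 2 and 9 neutrophil barcodes. At 10000 to 30000 UMIs, dividing cells gave mitochondrial ratios of -0.085 and -0.27 and nuclear ones of 0.26 and 0.25, and hypoxia-marked cells -0.25 and -0.35, and -0.26 and -0.20. The mitochondrial share, in control and iIRE, had medians over barcodes of 1.41% and 1.23% in macrophages, 2.13% and 1.5% in osteoclast-like cells, 0.177% and 0.249% in neutrophils, 1.35% and 1.22% in epithelial-type and 1.40% and 1.21% in mesenchymal-type cells. At 3000 to 10000 UMIs it was 1.56% and 1.31% in macrophages, 3.54% and 2.64% in osteoclast-like cells, 0.453% in control neutrophils, 2.69% and 2.21% in epithelial-type and 1.84% and 1.63% in mesenchymal-type cells. Without barcodes over 10% it was 1.48% in control macrophages, 0.613% in iIRE neutrophils, 1.52% and 1.32% in epithelial-type and 1.62% and 1.38% in mesenchymal-type cells. The causes of these moves were not tested.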
